A study of Mus musculus with 4 samples.

Results

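The genes of the DNA replication machinery were examined for RNA bound by DHX9, an RNA helicase that unwinds RNA duplexes, in mouse embryonic stem (ES) cells. The 40 genes encode the proteins that bind and license origins, the replicative helicase and its activators, the replicative polymerases, the sliding clamp and its loader, the single-strand binding protein and the enzymes that join Okazaki fragments. A peak was counted for a gene when its midpoint lay in the gene body, on either strand. By this rule 274 of the 59563 peaks of the series fell in these genes. Positions of peaks in kb along a gene, and distances between neighbouring peaks, are those of midpoints. All 40 symbols were found among the 49980 genes placed in the RefSeq table of GRCm38.p6, the assembly that mm10 represents.

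The series has 4 samples: 2 pulldowns with a rabbit antibody to DHX9 (replicates A and B) and 2 with rabbit IgG (replicates A and B). All came from WT26, a male ES cell line of C57BL/6x129sV background that was grown without feeder cells in medium with LIF. No genotype, treatment or time distinguishes the groups, which differ only in the antibody, and all 4 samples rest on 1 cell line. The method was FLASH, a form of CLIP-seq in which ultraviolet light crosslinks RNA to protein and the RNA fragments pulled down with that protein are sequenced. The authors deposited 1 peak list for the series, without heights, p-values or read counts, so sequencing depth is unknown for every peak and single pulldowns cannot be compared. The intervals below therefore cover counting error only. A peak requires RNA to be present, and in this bulk material fewer cells with a transcript and less transcript per cell cannot be told apart.

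Replication starts at origins marked by the origin recognition complex, on which Cdc6 and Cdt1 load the MCM helicase before S phase. In S phase Cdc45 and the GINS complex join MCM to form the active helicase, and polymerases alpha, delta and epsilon copy the strands. The PCNA clamp holds polymerases delta and epsilon to DNA. ES cells cycle fast and spend much of their time in S phase. DHX9 bears a helicase domain and double-stranded RNA binding domains, and in human cells it is known to bind RNA of inverted Alu repeats, which lie mostly in introns.

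Of the 40 replication genes, 29 (72.5%, 95% Wilson interval 57.2 to 83.9%) held at least 1 peak, while 22.8% of the 21900 protein-coding genes did. Protein-coding genes of the same length, taken as the share with a peak in each member's length class (of 10), gave 25.5%, so that the members' share was 2.84 times as high. Genes were matched on length alone, and a peak list gives no amount of RNA. At least 3 peaks were present in 21 members, against 14.8% of protein-coding genes, and at least 10 peaks in 10 members, against 7.27%. Among genes with a peak the median number was 5 in the 29 members and 5 in the 4989 protein-coding genes. The density was 0.235 peaks per kb in bound members at the median and 0.176 in all bound protein-coding genes. These densities were not matched on length, and bound members were shorter, with a median of 21.7 kb against 31.3 kb. The cells' identity was checked on markers in the same list: 6 of 8 ES cell marker genes held peaks, against 17.0% at the same length. Among them, Sox2 had 6 peaks, all of which also lay in another gene. Pou5f1 had 12 and Nanog 13, and Klf4 and Dppa5a had 0. None of 8 fibroblast marker genes held one, against 24.9% at the same length. A count of 0 here allows a share of up to 37.5%, so it cannot be told apart from that 24.9%. The limit of 37.5% takes 3 genes as the most that a count of 0 allows. The same rule is used for the promoter windows, and it is not a Wilson interval.

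**Figure D1:**
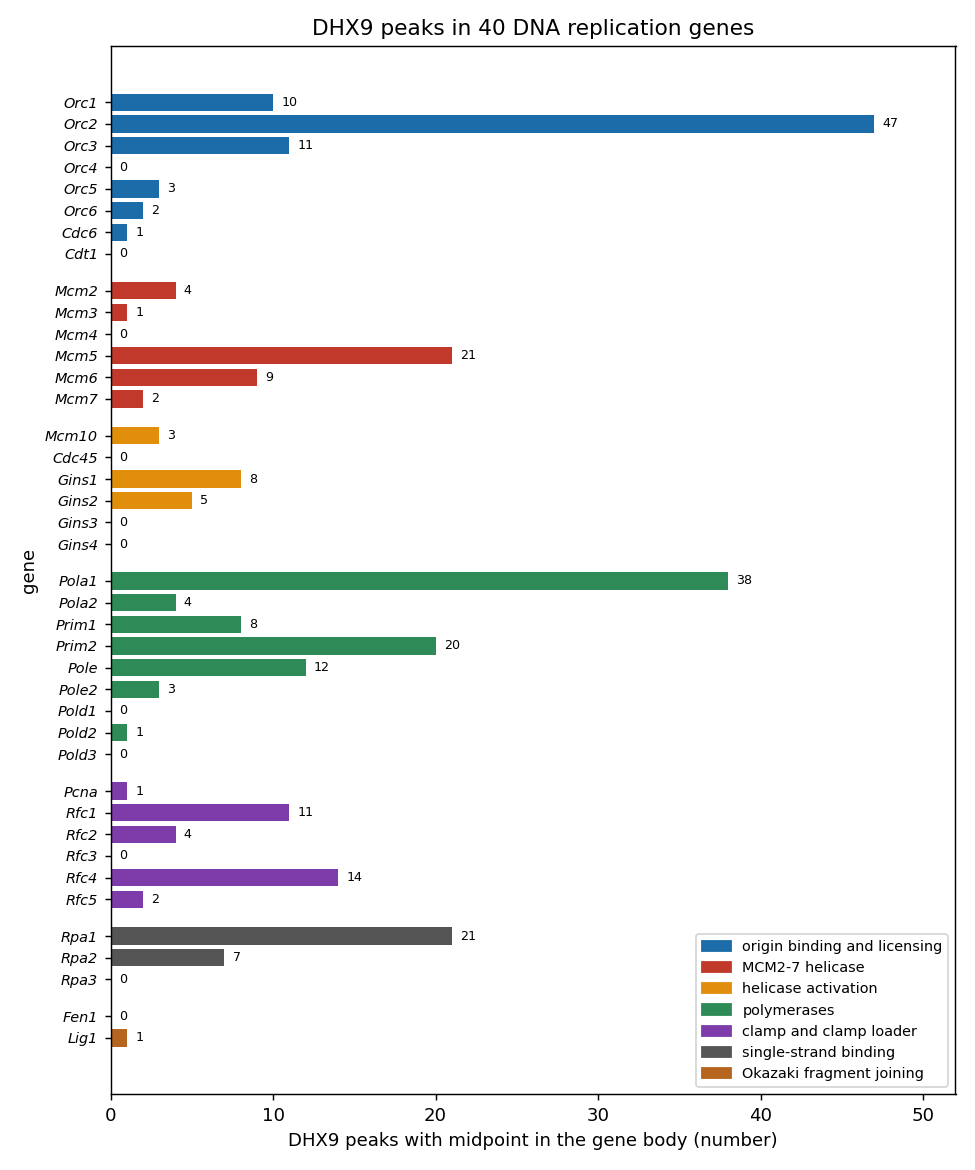
Number of DHX9 peaks with their midpoint in the gene body (horizontal axis) for each of the 40 replication genes (vertical axis), coloured by class; the number stands beside each bar. Orc2 with 47 and Pola1 with 38 peaks stand above the rest, and 11 genes are at 0.

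**Figure D2:**
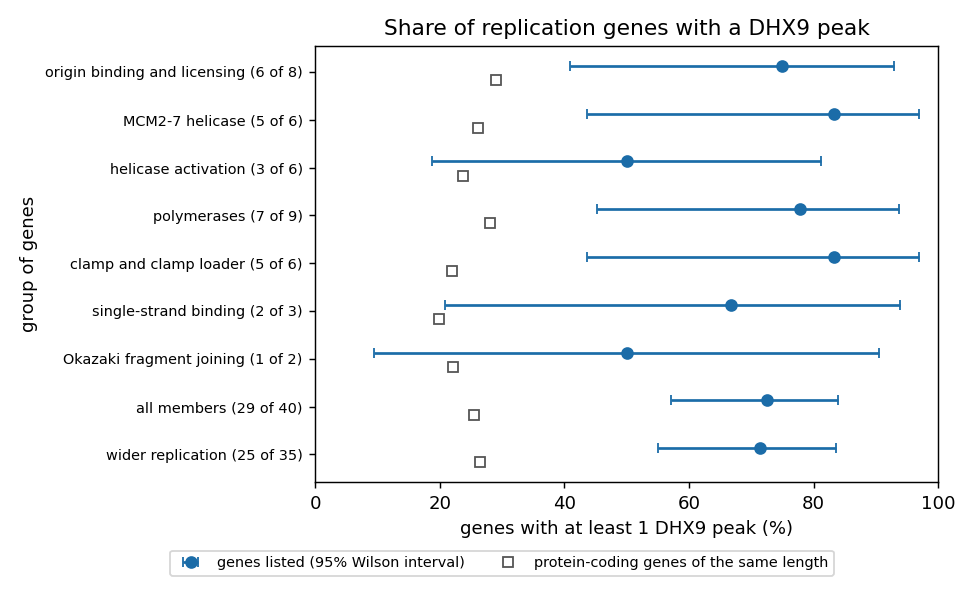
Percentage of genes with at least 1 peak (horizontal axis) for 7 classes of replication genes, all 40 and a wider list of 35. Filled circles are the listed genes with 95% Wilson intervals and open squares are protein-coding genes of the same length; every circle lies to the right of its square, with wide intervals in the small classes.

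The genes for origin binding and licensing held 74 peaks in 6 of 8 genes (75%, against 29.1% of genes of the same length). Most were in Orc2, which encodes a core subunit of the origin recognition complex (chromosome 1, 58462771 to 58505113, minus strand). Orc2 held 47 peaks over 42.3 kb, all on its own strand, and peaks covered 32.0% of the gene body. By number of peaks it ranked 217 among the 21900 protein-coding genes. Its first peak lay 4.40 kb from the gene start. Between 12.3 and 23.9 kb, 28 peaks followed each other at distances of up to 1 kb. No midpoint lay between 29.9 and 35.5 kb. Close spacing was common: 66.3% of distances between neighbouring peaks in members were up to 1 kb, beside 75.4% in all protein-coding genes. The widest peak of all 40 genes, 757 bases, was within the run in Orc2 (58490193 to 58490949). The other subunits held far fewer: Orc3 had 11, of which 8 formed a run between 16.9 and 19.8 kb, and Orc1, an ATP-binding subunit, had 10 spread from 4.65 to 39.8 kb of its 40.3 kb. Of these 10, 4 also lay in Gm12743, which the promoter table places on the opposite strand. Orc5 had 3 peaks and Orc6 had 2. The loading factor gene Cdc6 had 1 peak, of 154 bases, and Cdt1, the other loading factor, had 0. Orc4 also had 0, although at 50.1 kb it is longer than Orc2. The subunits of a single complex thus ranged from 0 to 47 peaks.

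The MCM helicase genes held 37 peaks in 5 of 6 genes (83.3%, against 26.1% at the same length). Mcm5 held 21 of them over 19.0 kb (chromosome 8, 75109468 to 75128439, plus strand), all on its own strand, and peaks covered 29.3% of the gene. By midpoint, the first peak lay 271 bases from the gene start, and all but the last 2 lay by 11.3 kb. From there to the next midpoint was 5.48 kb. Mcm6 had 9 peaks in 28.1 kb, with 6 between 6.35 and 8.59 kb and the rest after 13.8 kb without a midpoint. Mcm2 had 4 peaks, all with midpoints within the first 2.85 kb. It was the 1 member whose peaks all lay in the first 20% of the gene. Mcm3 had 1 peak, 9.77 kb from its start, and Mcm4 had 0. The 6 proteins form a ring with 1 copy of each, while the peaks of their genes ranged from 0 to 21.

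The remaining helicase gene, Mcm7, held 2 peaks, and both bordered microRNA hairpins. Mcm7 (chromosome 5, 138164583 to 138172111, minus strand) is the host of the hairpins Mir106b, Mir93 and Mir25, which lie in this order along the transcript. A hairpin in such a transcript is cut at its base by Drosha and at its loop by Dicer, which frees the mature microRNAs of its 5p and 3p arms. The hairpins are shown because the edges of both peaks inside them fall within 2 bases of the ends of mature microRNAs. Sequences are from RefSeq (GRCm38.p6), and capitals mark the bases under a DHX9 peak.
Mir106b hairpin, chr5:138165737-138165818, minus strand: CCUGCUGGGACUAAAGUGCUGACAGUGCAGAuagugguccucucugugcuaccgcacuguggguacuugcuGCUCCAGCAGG
Mir93 hairpin, chr5:138165523-138165610, minus strand: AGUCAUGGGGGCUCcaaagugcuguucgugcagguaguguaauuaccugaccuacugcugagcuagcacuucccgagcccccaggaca
Mir25 hairpin, chr5:138165321-138165404, minus strand: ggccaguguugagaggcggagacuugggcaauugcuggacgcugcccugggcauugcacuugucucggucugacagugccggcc

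The upstream peak of Mcm7 (138165788 to 138165974, 187 bases) ran into the Mir106b hairpin and stopped 1 base short of the end of miR-106b-5p, so that 20 of its 21 bases were covered. The 40 bases up to the next peak, which hold that last base, the loop and most of the 3p arm, were not covered. The downstream peak (138165597 to 138165747, 151 bases) began with the last 2 bases of miR-106b-3p, covered all 149 bases between miR-106b-3p and miR-93-5p, and ended on the base just before miR-93-5p. In all, 42 of 82 bases of the Mir106b hairpin, 14 of 88 of the Mir93 hairpin and 0 of the Mir25 hairpin lay under a peak. The 5p microRNAs of the first 2 hairpins share a seed (bases 2 to 8, in capitals), and miR-25-3p has another.
miR-106b-5p: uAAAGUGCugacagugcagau
miR-93-5p: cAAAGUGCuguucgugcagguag
miR-25-3p: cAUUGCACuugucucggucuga

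**Figure D3:**
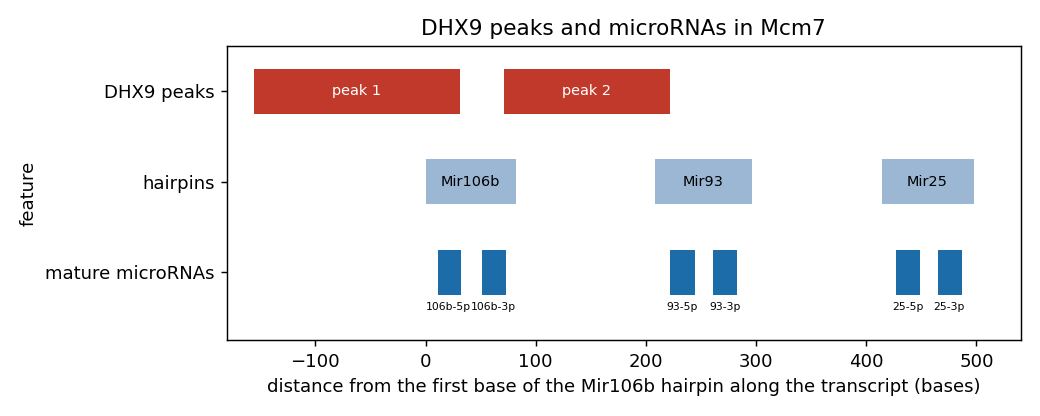
DHX9 peaks, microRNA hairpins and mature microRNAs in Mcm7, drawn to scale by their distance in bases from the first base of the Mir106b hairpin along the transcript (horizontal axis). Peak 2 fills the stretch from the end of miR-106b-3p to the start of miR-93-5p, and no peak covers either mature microRNA of Mir93 or the Mir25 hairpin.

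Both edges of the downstream peak were then counted over all microRNA hairpins, a comparison chosen after the values were seen, while the edge at the end of miR-106b-5p was not counted. Of 644 hairpins with both arms in the RefSeq table, 50 overlapped a peak on their strand. At 6 of these 50 a peak ended within 2 bases of the base before the 5p microRNA, Mir93 among them. At 2 a peak began within 2 bases of the base after the 3p microRNA, Mir106b among them. Mir93 and Mir106b had to be among these, since the comparison was drawn from their peak. How often peak edges fall at other places in hairpins was not counted. In 21 of the 50 the whole hairpin lay inside a peak. The 4 other small RNA genes inside the replication genes overlapped no peak: an snRNA gene in each of Orc2 and Orc5, a guide RNA gene in Pola1 and Mir7053 in Pold1.

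Of the genes that activate the helicase, 3 of 6 held a peak (50%, against 23.7% at the same length), 16 peaks in all. Gins1 had 8, of which 6 lay between 3.62 and 5.82 kb from the start of its 21.7 kb. Gins2 had 5, with midpoints within the first 2.81 kb of 7.81 kb. The other 2 subunits of GINS, Gins3 and Gins4, had 0, as did Cdc45, the partner of MCM and GINS, which is 31.5 kb long. Mcm10, which activates the assembled helicase, had 3, the first at 0.890 kb. Gins1 and Gins2 had no strand in the promoter table, so their positions were read along the strand of their peaks.

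The polymerase genes held the most peaks of any class, 86 in 7 of 9 genes (77.8%, against 28.1% at the same length), but also the most sequence, 721 of 1432 kb. Per kb of gene length they had 0.119 peaks, against 0.453 in single-strand binding, 0.367 in the MCM helicase and 0.0253 in Okazaki fragment joining, the only class below them. Pola1, the catalytic subunit of DNA polymerase alpha, held 38 over 328 kb of chromosome X (93304766 to 93632387, minus strand), all on its own strand. Only 12.5% of the 966 protein-coding genes of chromosome X held a peak, and Pola1 ranked 9 among them by number of peaks. Its peaks lay in separate groups, the largest group being 6 peaks between 86.0 and 88.4 kb. The longest distance between neighbouring midpoints was 63.1 kb. Prim2, the regulatory subunit of primase (216 kb), held 20, all between 47.4 and 104 kb along the strand of its peaks. Prim1, the catalytic subunit, held 8 in 14.8 kb, 7 of them between 2.11 and 5.42 kb. Per kb, Prim1 had 0.540 and Prim2 0.0926 peaks. Pola2, the accessory subunit of polymerase alpha, held 4.

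The catalytic subunit of polymerase epsilon, Pole, held 12 peaks, 7 of them in the first 6.51 kb of 51.1 kb, and the accessory gene Pole2 held 3. Among the polymerase delta genes of the list there was 1 peak, in the accessory gene Pold2. The catalytic gene Pold1 and the accessory gene Pold3 had 0, at lengths of 16.1 and 39.4 kb.

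The clamp and clamp loader genes held 32 peaks in 5 of 6 genes (83.3%, against 21.9%). Rfc4, a small subunit of the loader, held 14 in 13.8 kb (chromosome 16, 23113948 to 23127730, minus strand), which covered 24.5% of the gene. Rfc1, the large subunit, held 11 in 76.8 kb, 8 of them in the first 20% of the gene and none beyond 32.7 kb. Rfc2 had 4 and Rfc5 had 2, and Rfc3 had 0. Pcna, the clamp itself, is 3.90 kb long and had 1 peak of 103 bases, towards its end at 3.18 kb.

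Replication protein A, which coats single-stranded DNA, had 28 peaks in 2 of 3 genes (against 19.8% at the same length). Rpa1, its large subunit, held 21 in 48.2 kb (chromosome 11, 75300259 to 75348454, minus strand), of which 8 lay between 30.0 and 32.2 kb. Rpa2, the middle subunit, held 7 in 10.4 kb, covering 21.5% of the gene, and Rpa3, the shortest of the 40 genes at 3.21 kb, had 0. Of the enzymes that finish Okazaki fragments, the ligase gene Lig1 had 1 peak, 31.2 kb into its 34.3 kb, and the flap endonuclease gene Fen1 had 0, which made 1 of 2 genes (against 22.1%).

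**Figure D4:**
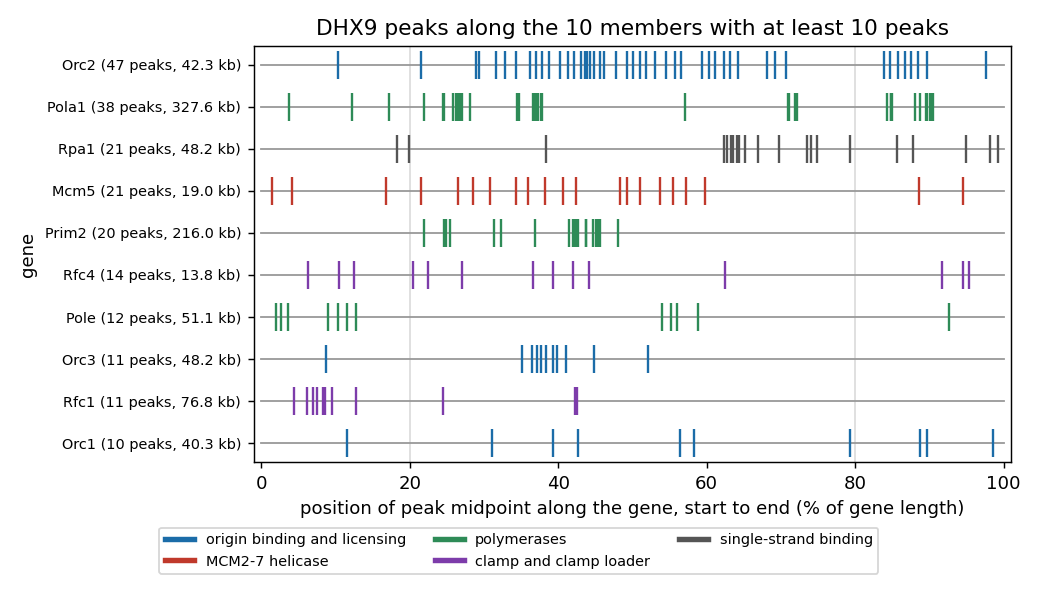
Position of each peak midpoint (ticks) along the 10 members with at least 10 peaks, from gene start to gene end, in percent of gene length (horizontal axis); pale lines mark 20% and 80%. Peaks of Rfc1 and Prim2 all lie before 50%, most peaks of Rpa1 lie beyond 60%, and those of Orc2 run along most of it.

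Nearly all peaks lay on the strand of their gene. A gene strand was given for 33 of the 40 genes, of which 24 held peaks, and 223 of their 225 peaks (99.1%, interval 96.8 to 99.8%) were on the gene's strand, beside 98.0% over all protein-coding genes with a strand. The exceptions were 1 peak in Pole2 (chromosome 12, 69210432 to 69210595) and 1 near the end of Rfc4 (chromosome 16, 23114484 to 23114687), both in no other annotated gene at their midpoint. The 5 other genes with peaks, Gins1, Gins2, Prim2, Pole and Rfc2, had all of theirs on 1 strand. By midpoint, 270 of the 274 peaks lay in no other annotated gene, the exceptions being those of Orc1 in Gm12743.

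Along the gene bodies, the first 20% held 45 of the 274 peaks (16.4%) and the last 20% held 41 (15.0%). The most were in the next 20% after the first, with 84 peaks (30.7%). Over all protein-coding genes the first 20% held 27.6%, the next 20% held 23.9% and the last 20% held 12.6%. With each gene counted once, the first 20% held a mean of 19.2% in the 29 bound members and 24.9% in the 4989 bound protein-coding genes. The difference was not tested, since peaks in runs are not independent and a few genes hold most of them: 147 of the 274 lay in Orc2, Pola1, Mcm5, Rpa1 and Prim2. Within this list, 14 of the 29 bound members had no peak in the first 20% of the gene. No such count over other genes stands beside it, and 8 members held only 1 or 2 peaks.

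No member had a peak over its promoter window, the 250 bases before and 50 bases after the gene start in the RefSeq promoter table. The count was 0 of 33 members with a window, which allows a share of up to 9.09%, beside 2.00% of all protein-coding genes. Among genes with a peak it was 0 of 24 members, which allows up to 12.5%, beside 8.49% of protein-coding genes, so a difference was not detectable with this number of genes. The peaks nearest to a gene start were those of Mcm5 at 271 bases and Mcm2 at 302 bases, by midpoint.

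Members with a peak had a median length of 21.7 kb and those without one 11.5 kb. Of the 18 members of at least 20 kb, 15 held a peak (83.3%), beside 33.3% of protein-coding genes of that length, and of the 22 shorter ones 14 did (63.6%), beside 13.9%. Across the 40 genes, which are not independent replicates, the number of peaks was correlated with length (Spearman rho 0.52, as a description). The same correlation was 0.27 over all protein-coding genes. By density the order was different, since Orc2 (1.11 peaks per kb), Mcm5 (1.11), Rfc4 (1.02), Rpa2 (0.674) and Gins2 (0.640) came first, and the long genes Pola1 and Prim2 had 0.116 and 0.0926. With peaks within 50 bases merged, Mcm5 had 0.843 and Orc2 0.827 peaks per kb, and with only peaks as wide as the median or wider Rfc4 came first at 0.871, so these 3 genes have no fixed order. When the 2330 protein-coding genes with 5 or more peaks and a length of 10 kb or more were ordered by density, Orc2 ranked 294 and Mcm5 ranked 299.

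**Figure D5:**
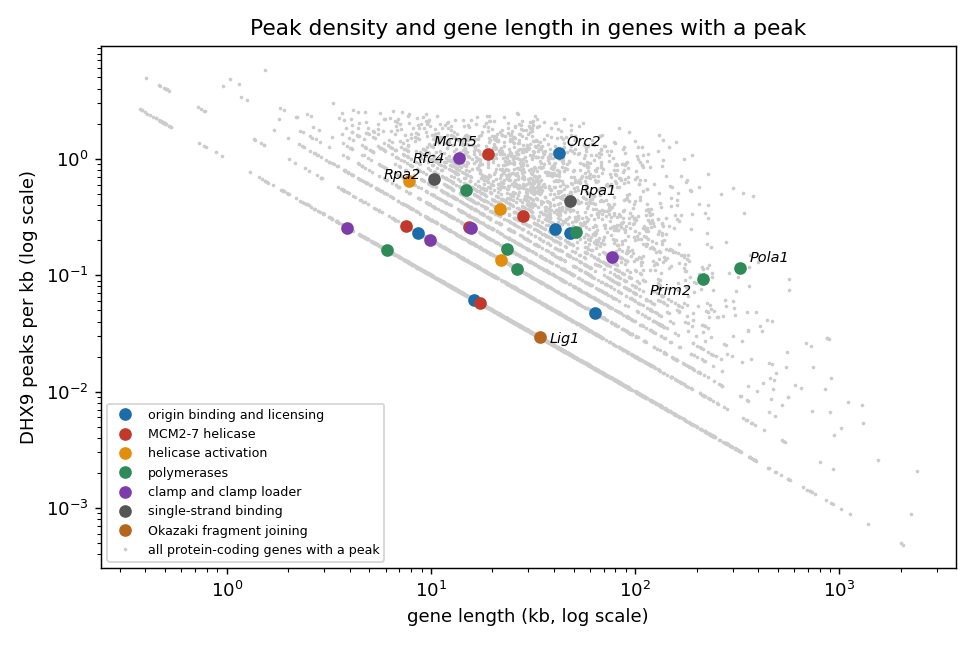
Peaks per kb (vertical axis, log scale) against gene length in kb (horizontal axis, log scale) for the 29 members with a peak, coloured by class, and all protein-coding genes with a peak in grey. Straight lines of points are genes with 1, 2, 3 and more peaks; Orc2, Mcm5 and Rfc4 are the members of highest density and Lig1 has the lowest, 0.0292.

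The 11 members without a peak were Orc4, Cdt1, Mcm4, Cdc45, Gins3, Gins4, Pold1, Pold3, Rfc3, Rpa3 and Fen1. No peak overlapped any of them even by 1 base, and among all 40 genes no peak overlapped a gene end, so the midpoint rule decided no member. The nearest peak to Fen1 on its strand was 4.25 kb upstream, in Myrf. For Mcm4, whose strand was not in the table, the nearest on either strand was 19.6 kb away, in Prkdc. For the other 9 (Gins4 also on either strand) it was between 20.9 and 3783 kb away, farthest for Orc4. Of the 6 members on chromosome 8, where 32.2% of protein-coding genes held a peak, 3 did: Orc6, Mcm5 and Gins2.

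A wider list of 35 replication genes that act around this machinery had a peak in 25 genes (71.4%, interval 54.9 to 83.7%), against 26.5% at the same length. The most peaks were in Tipin, a fork protection factor, with 49 in 23.9 kb, followed by the fork factor gene Wdhd1 with 21 and the topoisomerase gene Top1 with 20, of which 7 were not on the strand of Top1. Chaf1b, a histone chaperone gene, held 18. Dbf4, the regulatory subunit of the kinase that phosphorylates MCM, held 17, and the FACT subunit gene Supt16 held 16. Donson held 13, of which 11 were not on its strand and 2 lay in no other gene. All 4 peaks of Chtf8 also lay in another gene. With only peaks in no other gene, 24 of the 35 genes held one. The factors of origin firing and forks had a peak in 11 of 13 genes (84.6%), and those of primer removal and chromatin in 7 of 9 (77.8%). Nucleotide supply had a peak in 4 of 6 (66.7%) and the small polymerase and loader subunits in 3 of 7 (42.9%). Over all protein-coding genes the share was 22.8%, with no match on length for these groups. The small subunits include Pole3 (1.22 kb) and Pold4 (1.74 kb), beside genes as long as Atad5 (46.4 kb). At the lengths of Pole3 and Pold4, 2.47% and 6.30% of protein-coding genes held a peak, so these groups cannot be ranked by their counts. Timeless, the partner of Tipin, had 0, as did Recql4, Dscc1, Chtf18, Pold4, Pole3, Rnaseh2b, Rnaseh2c, Rrm2 and Tyms. As further comparison, 19 of 30 DNA repair genes (63.3%, against 33.0% at the same length), led by Xrcc5 with 31, and 13 of 24 cell cycle genes (54.2%, against 23.9%), led by Bub1 with 13, held a peak. The 95% intervals of these shares, 45.5 to 78.1% and 35.1 to 72.1%, overlap that of the replication genes, and no test of the difference was made. Of the cell cycle genes with a peak, Ccne2 and Cdk2 each held only 1, which also lay in another gene.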

How the data were processed

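FLASH libraries were made from 2 DHX9 and 2 IgG pulldowns; per the labels' protocols, PCR duplicates were merged by random tags. The authors deposited 1 list of 59563 peaks, each with first base, last base and strand and an empty score field; per the file's source column they were called with PEAKachu. The sources used here do not give its version and settings or how IgG entered. Bowtie2 2.2.6 and the builds hg19 and mm10 are named in the submitters' processing notes; mm10 was taken from the mouse chromosome names. Gene bodies came from the RefSeq table of GRCm38.p6, and gene strands, present for 33 members, from the RefSeq promoter table. Elsewhere position was read along the strand holding most peaks. Exons and introns were not analysed here.

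Peak midpoints were assigned to every gene body holding them with Python 3.11.15, numpy 2.4.6 and pandas 2.3.3. The share at the same length was the share of other protein-coding genes with a peak in each member's length decile, averaged over members. No test was made, since 1 list holds no replicates. The counting and the length-matched share were tested on simulated data. Genes described in detail were members with at least 10 peaks, the leading member of each class, the 5 of highest density, members with 1 or 2 peaks or none, and leading genes of the other lists. Positions in other members (such as Mcm2, Mcm6, Mcm10 and Prim1) were added after their values were seen, as were Donson and Chtf8 of the wider list. The members and lists were chosen with earlier results of these data known.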

Additional observations from a re-analysis of the deposited data

How the results depend on the processing

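Of 77 values recomputed for 14 results under other settings, 71 stayed close to the value reported. Close means within 1.5 times for counts and for peaks per kb, and within the 95% interval for shares, ratios and differences. Some of the 71 could not have moved. No peak overlapped the end of a member gene, so counting any overlap, or only whole peaks, had to return the same counts for members. Merging peaks within 50 bases could not change which members held a peak. The tally of 71 therefore overstates how far the results were put to a test. The share of members over the share at the same length ranged from 2.79, with the 100 genes of nearest length, to 3.14, with at least 3 peaks per gene, around the reported 2.84. With the wider peaks alone (median width or more), the members held 140 peaks in 24 genes, bound members had a median of 0.128 peaks per kb, and the genes of Okazaki fragment joining had 0 with a peak; fewer peaks enter this setting by construction. With at least 3 peaks per gene, the genes counted were 3 of 6 in the MCM helicase, 3 of 6 in the clamp and clamp loader and 0 of 2 in Okazaki fragment joining. Under the same rule 14.8% of all protein-coding genes were counted. The first 20% of the gene minus the last 20% was 1.46 percentage points over all member peaks. It was -2.67 over the pooled peaks of the 10 members that are 20 kb or longer and hold 5 or more peaks. With each of these 10 genes counted once, the first 20% held a mean of 19.5% and the last 20% a mean of 13.0%. Without Orc2, an alternative chosen after seeing the data, the difference over the remaining member peaks was 4.85. The 95% interval of the reported difference of 1.46, -5.18 to 8.10, takes peaks as independent, although peaks in runs are not. Because it includes both signs, the change of sign counted as close. No paired analysis was possible because the list holds no values per sample, and for the same reason leaving out a replicate was not run. The number of reads behind a peak is unknown, so a gene without a peak is not shown to be unbound.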
